A study of Sus scrofa with 8 samples.

Results

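The genes described here are MDM2, the CDK inhibitors CDKN1A, CDKN1B and CDKN1C, the D cyclins CCND1, CCND2 and CCND3, and the E cyclins CCNE1 and CCNE2. They were taken from the count table by their pig Ensembl symbols, and all 9 symbols had a row among the 24358 genes. All 9 also passed the filter on low counts that left 13250 genes for testing.

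RNA-seq was done on DOX-hLIF-2i piPSCs, which are pig cells reprogrammed to pluripotency and kept with doxycycline, LIF and a pair of kinase inhibitors. In the IRF-1 overexpressing group, replicates 1 and 3 carried a piggyBac vector in which the CAG promoter drives Flag-tagged IRF-1, and in the control group replicates 6 and 8 carried the same vector with Flag alone. The sample labels name another medium, LCDMV, and PC-iPS cells, and the study's name for the cells is used here. Feeder cells were reduced by letting them attach for 1 hour, and the suspended cells were collected for RNA. The sample labels give all 4 libraries the genotype of IRF-1 overexpression and describe adult domestic pig, so the groups follow the library names and the study's key to them.

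The libraries of the control cells went against that genotype label. IRF1 had 8206 and 5485 counts in the IRF-1 overexpressing replicates 1 and 3 and 55 and 56 counts in the control replicates 6 and 8. Library totals were 24923319 and 20858333 counts in the overexpressing cells and 15925429 and 17097669 counts in the control cells. The labels do not say whether replicates were separate cultures, so p-values measure the spread between these libraries, which may be technical. Replicates 1 and 3 differed by more than counting noise, as did replicates 6 and 8, and each library was counted as a separate sample.

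IRF-1 is a transcription factor of the interferon response and is known as a growth suppressor. Passage from G1 into S phase is driven by D cyclins with CDK4 and CDK6 and then by E cyclins with CDK2, which together phosphorylate the pocket proteins and free the E2F factors. The CDK inhibitors p21, p27 and p57, encoded by CDKN1A, CDKN1B and CDKN1C, hold these kinases back, and p53 induces both CDKN1A and MDM2, whose product in turn targets p53 for degradation.

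Among these genes, CDKN1C had fewer transcripts in the IRF-1 overexpressing libraries and CCNE2 had more. MDM2 also had fewer, but was short of the minimum fold change set below. CDKN1B was higher in both overexpressing libraries but missed the threshold on the adjusted p. These results rest on 2 libraries in each group. CDKN1A, the best known p53 target among the inhibitors, overlapped between the groups. CCND1 and CCND2 differed more between the control libraries than between the group means, while CCND1 took a larger share of the D cyclin transcripts in both overexpressing libraries. In bulk RNA, fewer cells of a type and less RNA per cell cannot be told apart.

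A gene was called higher or lower when edgeR's quasi-likelihood test gave a Benjamini-Hochberg adjusted p under 0.05 over all 13250 genes and the log2 fold change was at least 1 in size. By this rule 1 of the 9 genes was called higher, CCNE2, where 8.61% of all tested genes were, and 1 was called lower, CDKN1C, where 10.6% were. With the adjusted p alone, 1 of 9 was higher against 13.9% of all tested genes, and 2 of 9 were lower against 15.5%, the second being MDM2. At an unadjusted p under 0.05, 2 of 9 were higher and 2 lower, against 19.5% and 21.2% of all tested genes. Both overexpressing libraries lay above both controls for 2 of the 9 genes, against 34.8% of all tested genes, and below both for 2, against 33.8%. The called counts are near the shares of all tested genes, and the counts of genes without overlap are below them. The median log2 fold change of the 9 genes was -0.13, beside -0.0016 over all tested genes. With edgeR on the 3 remaining libraries, no gene of the 9 was past the adjusted p threshold once overexpressing replicate 1 or replicate 3 was left out.

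**Figure D1:**
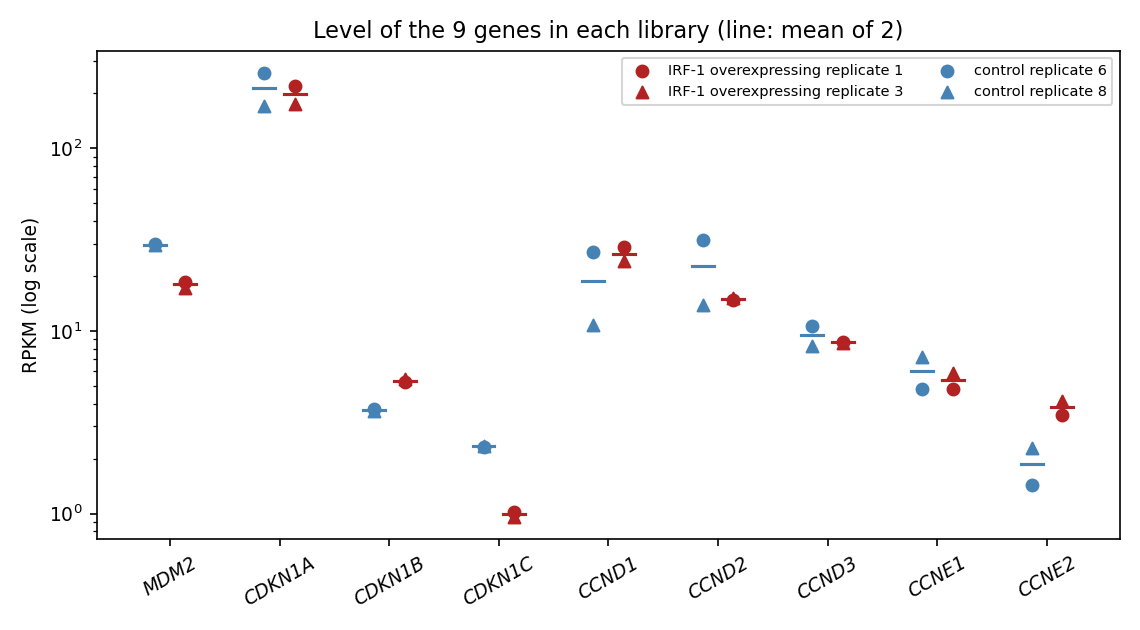
Level of the 9 genes in RPKM (log axis), with a point for each library, red for IRF-1 overexpressing cells and blue for control cells, and a line at the mean of 2 libraries. MDM2 and CDKN1C lie lower and CDKN1B and CCNE2 lie higher in both red libraries, and the other 5 genes overlap.

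MDM2 (ENSSSCG00000000488, chromosome 5, bases 33087010 to 33164514 of Sscrofa11.1, plus strand) encodes the ubiquitin ligase that keeps p53 low. It had 2483 and 1928 counts in overexpressing replicates 1 and 3, and 2505 and 2762 counts in control replicates 6 and 8. Scaled to library size and exon length, its level was 18.6 and 17.3 RPKM in the overexpressing cells and 29.9 and 29.4 RPKM in the control cells. Both overexpressing libraries lay below both controls, and the replicates of each group were close. Its log2 fold change of -0.72 (standard error 0.136, edgeR adjusted p = 0.00670) was short of the minimum size for a call. Leaving out 1 library at a time gave -0.77 to -0.67 with edgeR adjusted p from 0.00286 to 0.0809. The adjusted p missed the threshold without overexpressing replicate 1 (edgeR adjusted p = 0.0640) and without overexpressing replicate 3 (0.0809).

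CDKN1A (ENSSSCG00000001565, chromosome 7, bases 32359455 to 32362271, plus strand) encodes p21, an inhibitor of cyclin-CDK complexes. It had 2593 and 1720 counts in the overexpressing cells and 1913 and 1403 in the control cells, a level of 220 and 174 RPKM against 258 and 169 RPKM. Both overexpressing libraries lay between the controls. CDKN1A had a log2 fold change of -0.11 (standard error 0.221, edgeR adjusted p = 0.733), and its sign changed with the libraries used, from -0.38 without control replicate 8 to 0.22 without control replicate 6.

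CDKN1B (ENSSSCG00000037144, chromosome 5, bases 59731208 to 59736685, minus strand) encodes p27, which binds cyclin E-CDK2. It had 624 and 541 counts in the overexpressing cells against 279 and 304 in the control cells, which is 5.24 and 5.42 RPKM against 3.72 and 3.62 RPKM. The overexpressing libraries were both above the controls, with little spread inside either group. The log2 fold change of 0.54 (standard error 0.177) missed the threshold at an edgeR adjusted p of 0.0567.

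CDKN1C (ENSSSCG00000040461, chromosome 2, bases 2018910 to 2022082, minus strand) encodes p57, the third inhibitor of this family and the product of an imprinted gene in mammals. It was counted 67 and 53 times in the overexpressing cells and 96 and 109 times in the control cells, a level of 1.02 and 0.963 RPKM against 2.32 and 2.36 RPKM. The level was low throughout, and lower in both overexpressing libraries than in either control. On the log2 scale the difference was -1.24 (standard error 0.315, edgeR adjusted p = 0.0222). It kept its size when 1 library was left out (-1.26 to -1.19), but the edgeR adjusted p rose to 0.119 without overexpressing replicate 1 and 0.113 without replicate 3, over a range from 0.0354. The RPKM ratio of CDKN1B to CDKN1C was 5.14 and 5.63 in the overexpressing cells, and in the control cells its mean was 1.57 ± 0.0457 (SD, n = 2). The ratio was higher in both overexpressing libraries, which follows from CDKN1B lying above both controls and CDKN1C below both. Its exact two-sided permutation p was thus bound to be 0.333, the smallest that 2 against 2 libraries can give. It adds nothing to the values of the 2 genes.

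CCND1 (ENSSSCG00000037900, chromosome 2, bases 3620462 to 3633470, minus strand) encodes cyclin D1, an activator of CDK4 and CDK6 that responds to growth factor signals. It had 3678 and 2600 counts in the overexpressing cells and 2165 and 968 in the control cells, which is 28.7 and 24.3 RPKM against 26.9 and 10.7 RPKM. Control replicate 6 lay between the overexpressing libraries and control replicate 8 was far below all others, 2.50-fold under replicate 6. The fitted log2 fold change, 0.49 (standard error 0.363, edgeR adjusted p = 0.350), depended on the control library. Without control replicate 6 it was 1.30 (edgeR adjusted p = 0.000269), and without control replicate 8 it was -0.013 (edgeR adjusted p = 0.963), the ends of the range over single libraries left out.

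CCND2 (ENSSSCG00000038694, chromosome 5, bases 66087379 to 66114616, minus strand) encodes cyclin D2. It had 2324 and 1995 counts in the overexpressing cells and 3140 and 1550 in the control cells, which is 14.7 and 15.1 RPKM against 31.6 and 13.9 RPKM. Control replicate 6 was above the other 3 libraries, 2.27-fold over control replicate 8, so the groups overlapped. CCND2 had a log2 fold change of -0.61 (standard error 0.327, edgeR adjusted p = 0.203). It ran from -1.08 without control replicate 8 (edgeR adjusted p = 0.000214) to 0.094 without control replicate 6 (edgeR adjusted p = 0.667), and with no filter on low counts it was -0.59 (edgeR adjusted p = 0.0198). For scale, the fold between the control libraries had a median of 1.20 over 13141 tested genes with counts in both, and 7.13% of these genes differed more than 2-fold.

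CCND3 (ENSSSCG00000032284, chromosome 7, bases 37088204 to 37095027, minus strand) encodes cyclin D3. It had 445 and 364 counts in the overexpressing cells and 340 and 296 in the control cells, which is 8.74 and 8.54 RPKM against 10.6 and 8.26 RPKM. The overexpressing libraries lay between the controls, and the log2 fold change was -0.13 (standard error 0.207, edgeR adjusted p = 0.684). The sign of CCND3 turned to 0.063 without control replicate 6. Its exons share 330 bases with BYSL on the opposite strand, so its count is uncertain to that extent.

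The groups did not overlap in the shares of CCND1 and CCND2 among D cyclin transcripts, while they did in the D cyclin sum. Summed over CCND1, CCND2 and CCND3, the level was 52.2 and 47.9 RPKM in the overexpressing cells and 69.1 and 32.9 RPKM in the control cells. The controls lay on either side of the overexpressing libraries. CCND1 made up 55.1% and 50.7% of this sum in the overexpressing cells, 52.9% ± 3.11 (SD, n = 2), and 38.9% and 32.6% in the control cells, 35.8% ± 4.46 (SD, n = 2). CCND2 made up 28.2% and 31.5%, 29.8% ± 2.34 (SD, n = 2), against 45.7% and 42.3%, 44.0% ± 2.41 (SD, n = 2). Neither share overlapped between the groups, and each had an exact two-sided permutation p of 0.333, the smallest possible here. Lack of overlap was common, as 34.8% of all tested genes had both overexpressing libraries above both controls and 33.8% below. Shares of other gene families were not taken for comparison. CCND1 exceeded CCND2 in both overexpressing libraries, with RPKM ratios of 1.96 and 1.61, and was below it in both controls, at 0.852 and 0.772. The CCND3 share was 16.8% and 17.8% against 15.4% and 25.1% and overlapped.

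CCNE1 (ENSSSCG00000002855, chromosome 6, bases 39919624 to 39933363, plus strand) encodes cyclin E1, the partner of CDK2 at entry into S phase. It had 333 and 341 counts in the overexpressing cells and 209 and 350 in the control cells, which is 4.83 and 5.91 RPKM against 4.82 and 7.21 RPKM. The overexpressing libraries fell within the range of the controls. CCNE1 had a log2 fold change of -0.17 (standard error 0.256, edgeR adjusted p = 0.663), which became -0.43 when control replicate 6 was left out and 0.16 when control replicate 8 was.

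CCNE2 (ENSSSCG00000006095, chromosome 4, bases 41802994 to 41821874, plus strand) encodes cyclin E2, the other E cyclin. It had 324 and 322 counts in the overexpressing cells and 84 and 149 in the control cells, which is 3.48 and 4.13 RPKM against 1.44 and 2.28 RPKM. Control replicate 6 was the lowest, and both overexpressing libraries were above both controls. CCNE2 was called higher at a log2 fold change of 1.03 (standard error 0.291, edgeR adjusted p = 0.0323). The value was 0.74 without control replicate 6 (edgeR adjusted p = 0.0805) and 1.41 without control replicate 8 (edgeR adjusted p = 0.00603). Without overexpressing replicate 1 the edgeR adjusted p was 0.0805 and without replicate 3 it was 0.147. CCNE2 shares 27 exon bases with INTS8 on the opposite strand.

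The ratio of CCNE2 to CCNE1 in RPKM varied little within a group. It was 0.721 and 0.700 in the overexpressing cells, 0.711 ± 0.0150 (SD, n = 2), and 0.298 and 0.316 in the control cells, 0.307 ± 0.0125 (SD, n = 2). The overexpressing libraries were the higher, with an exact two-sided permutation p of 0.333, the smallest possible. The ratio and the share below contain CCNE2, already called higher, so they are not separate results. CCNE2 was 41.9% and 41.2% of the E cyclin level in the overexpressing cells against 23.0% and 24.0% in the control cells. The summed E cyclin level overlapped, at 9.18 ± 1.22 RPKM (SD, n = 2) against 7.87 ± 2.28 RPKM (SD, n = 2). D and E cyclins together came to 60.5 and 57.9 RPKM in the overexpressing cells, between the controls at 75.3 and 42.4 RPKM.

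**Figure D2:**
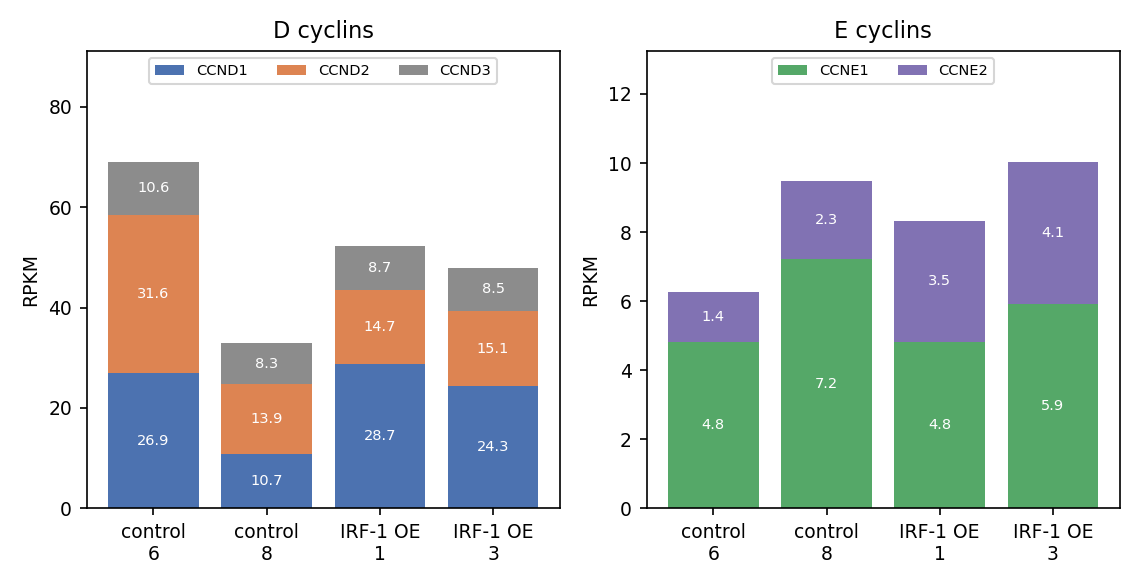
RPKM of the D cyclins (left) and E cyclins (right) stacked for each of the 4 libraries, with the value of each gene in its bar. CCND1 is the larger D cyclin in both IRF-1 overexpressing (OE) libraries and CCND2 in both controls, and CCNE2 makes up a larger part of the E cyclins in the overexpressing libraries.

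Ordered by level per exon length, CDKN1A came first in both groups, with a mean of 197 RPKM in the overexpressing cells and 214 RPKM in the control cells. Its annotated exons come to only 474 bases, so its place in the order is uncertain. In the overexpressing cells the order went on in mean RPKM with CCND1 at 26.5, MDM2 at 17.9, CCND2 at 14.9 and CCND3 at 8.64. CCNE1 and CDKN1B followed at 5.37 and 5.33 RPKM with overlapping libraries, then CCNE2 at 3.81 RPKM and CDKN1C at 0.991 RPKM. In the control cells MDM2 at 29.6, CCND2 at 22.7 and CCND1 at 18.8 mean RPKM came next after CDKN1A, and neighbours among these 3 overlapped. The lower end of the control order was CCND3 at 9.44, CCNE1 at 6.01, CDKN1B at 3.67, CDKN1C at 2.34 and CCNE2 at 1.86 mean RPKM. CCNE2 was thus the lowest of the 9 genes in the control cells and above CDKN1C in the overexpressing cells.

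The kinases bound by these cyclins were counted in a list of 7 G1 kinases and activators, of which 6 had a row and were tested. edgeR called 0 of the 6, against 8.61% of all tested genes called higher and 10.6% lower. At an unadjusted p under 0.05, 2 of the 6 were higher and 0 lower, against 19.5% and 21.2% of all tested genes. DESeq2 called 1 higher, CDK6, and limma-voom 0. The median log2 fold change of the list was 0.22, beside -0.0016 over all tested genes. CDK4 had 6937 and 7175 counts in the overexpressing cells and 3551 and 4469 in the control cells, 60.9 and 75.2 RPKM against 49.6 and 55.7 RPKM. Both overexpressing libraries were higher, at a log2 fold change of 0.37 (standard error 0.154, edgeR adjusted p = 0.112), but CDK4 shares 1313 exon bases with TSPAN31 on the opposite strand. Leaving out 1 library at a time, the log2 fold change of CDK4 was 0.22 without overexpressing replicate 3 (edgeR adjusted p = 0.581), 0.53 without replicate 1 (0.166), 0.29 without control replicate 6 (0.190) and 0.47 without control replicate 8 (0.0429). CDK6 had 247 and 115 counts against 54 and 65, 2.07 and 1.15 RPKM against 0.718 and 0.772 RPKM. The overexpressing libraries were again above the controls, replicate 1 most of all. For CDK6 the log2 fold change was 1.11 (standard error 0.367, edgeR adjusted p = 0.0568), and it rested on overexpressing replicate 1. Without that library it was 0.64 (edgeR adjusted p = 0.428), and without overexpressing replicate 3 it was 1.47 (edgeR adjusted p = 0.0302). With no filter on low counts the edgeR adjusted p was 0.00946. CDK2 had 29 and 30 counts against 22 and 30, but 3074 of its exon bases are shared with an unnamed gene on the same strand and 514 with another, so its count says little about its level.

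The other CDK inhibitors analysed were CDKN2B, CDKN2C, CDKN2D and CDKN3, and edgeR, DESeq2 and limma-voom called none of these 4, where edgeR called 8.61% of all tested genes higher and 10.6% lower. At an unadjusted p under 0.05, 0 of 4 were higher and 1 was lower, against 19.5% and 21.2% of all tested genes. The list's median log2 fold change was -0.48, beside -0.0016 over all tested genes. CDKN2C, named after its values were seen, encodes the CDK4 and CDK6 inhibitor p18 and had 42 and 34 counts in the overexpressing cells against 57 and 57 in the control cells. It was the gene of the list with both overexpressing libraries below both controls (log2 fold change -1.05, standard error 0.370, edgeR adjusted p = 0.0695).

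For p53 itself, transcripts of other genes that it is known to induce were examined. Of 30 such genes 24 had a row and 22 were tested. edgeR called 1 of the 22 higher and 3 lower, against 8.61% and 10.6% of all tested genes. With the adjusted p alone 4 were higher and 5 lower, against 13.9% and 15.5%. The median log2 fold change was 0.09, beside -0.0016 over all tested genes. Counts this small lie near the shares of all tested genes, a little above them by the adjusted p alone, and 13 of the 22 were not past the adjusted p in either direction.

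The gene called higher was PMAIP1, which encodes the pro-apoptotic protein NOXA. It had 711 and 515 counts in the overexpressing cells and 95 and 73 in the control cells, and 33 of its exon bases are shared with an unnamed gene on the opposite strand. Both overexpressing libraries were far above both controls, giving a log2 fold change of 2.38 (standard error 0.255, edgeR adjusted p = 0.000811). PERP, a desmosome protein linked to p53-dependent death, was called lower, with 380 and 230 counts against 882 and 1007. Both overexpressing libraries were below both controls (log2 fold change -2.11, standard error 0.200, edgeR adjusted p = 0.000547). BBC3, which encodes the pro-apoptotic protein PUMA, had 246 and 332 counts against 459 and 392. Here the groups did not overlap either, and BBC3 was 2.01-fold lower (edgeR adjusted p = 0.0288; standard error 0.274 on the log2 scale). The size of the BBC3 change sat at the minimum for a call and was short of it, at -0.99, with no filter on low counts, and just short with DESeq2 and without mitochondrial genes and the 10 highest genes. BBC3 missed the adjusted p threshold without overexpressing replicate 1 (log2 fold change -0.68, edgeR adjusted p = 0.176) and without control replicate 6 (-0.80, edgeR adjusted p = 0.0721), over a range from 0.0107.

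PLK2, a polo-like kinase gene, had 2693 and 2767 counts in the overexpressing cells and 8820 and 2826 in the control cells. It was high in control replicate 6, 3.49-fold over control replicate 8, and the called log2 fold change of -1.59 (standard error 0.483, edgeR adjusted p = 0.0425) came down to -0.42 without that library (edgeR adjusted p = 0.0675). Without overexpressing replicate 1 or 3 it was -1.43 or -1.74 and missed the adjusted p threshold. Without control replicate 8 it was -2.22 and past the threshold. Neither DESeq2 (adjusted p = 0.151) nor limma-voom (adjusted p = 0.0751) called PLK2. With no filter on low counts its edgeR adjusted p was 1.52e-07. Without control replicate 6, 1 of the list was called lower in place of 3, as without overexpressing replicate 1 and as with DESeq2. Without control replicate 8, 2 were called higher in place of 1.

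The genes past the adjusted p alone were named after their values were seen. FDXR, SESN1 and TIGAR, which act in mitochondrial electron transfer, stress signalling and sugar metabolism, were higher with log2 fold changes of 0.89, 0.72 and 0.50. ZMAT3 and TP53INP1 were lower, at -0.70 each. MDM2, itself induced by p53, was lower by the same rule, and CDKN1A was not past the threshold in either direction. TIGAR missed the threshold with any 1 library left out (edgeR adjusted p from 0.0580 to 0.269), with DESeq2 (adjusted p = 0.0617) and when scaled by library totals alone (edgeR adjusted p = 0.0507). ZMAT3 and TP53INP1 missed it without either overexpressing replicate (up to 0.0775 and 0.186). SESN1 missed it without overexpressing replicate 1 (edgeR adjusted p = 0.108) and FDXR without replicate 3 (edgeR adjusted p = 0.0508). By the adjusted p alone, the counts of the list depended on which library was left out, and so did the direction that held more genes.

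**Figure D3:**
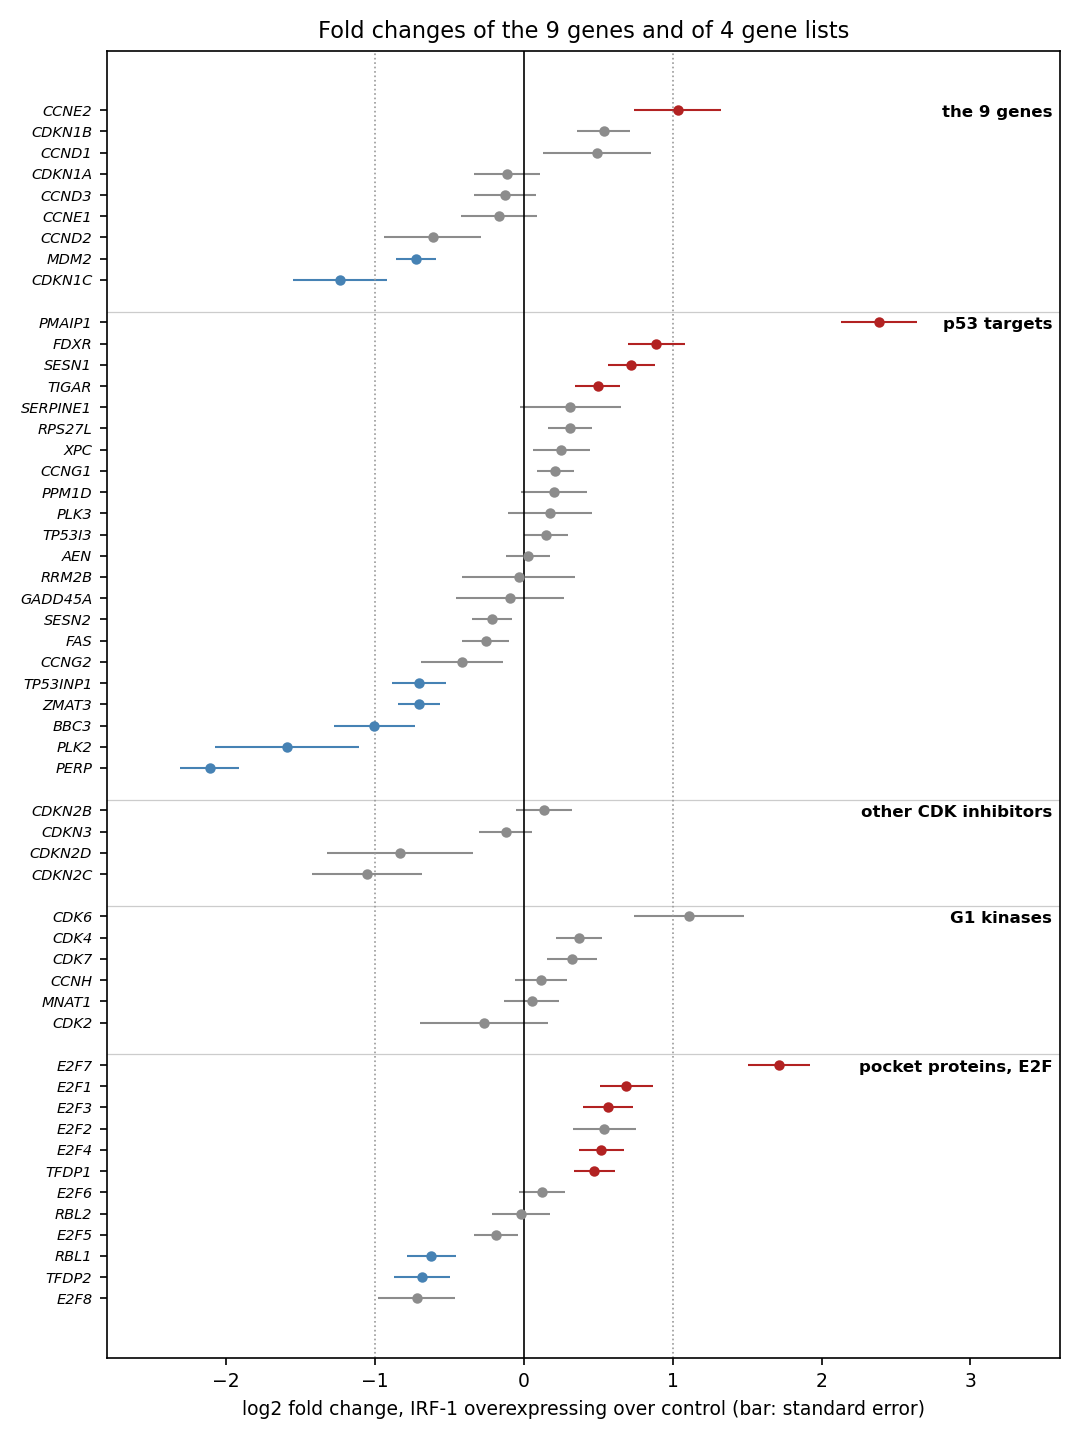
Log2 fold change of IRF-1 overexpressing over control cells (x axis, bars are standard errors of the edgeR fit) for the 9 genes and the tested genes of 4 lists. Red and blue points are higher and lower at an adjusted p under 0.05, grey points are not, and dotted lines mark a log2 fold change of 1 in either direction.

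Downstream of the G1 cyclins, all 12 listed genes for pocket proteins, E2F factors and their DP partners were tested. edgeR called 1 of the 12 higher and 0 lower, against 8.61% and 10.6% of all tested genes. With the adjusted p alone 5 were higher and 2 lower, against 13.9% and 15.5%, and the median log2 fold change was 0.30, beside -0.0016 over all tested genes. DESeq2 and limma-voom gave the same counts, and at an unadjusted p under 0.05 there were 6 higher and 3 lower, against 19.5% and 21.2%. The called gene was E2F7, an atypical E2F that represses other E2F targets. It had 2882 and 2579 counts in the overexpressing cells and 453 and 769 in the control cells, 19.7 and 21.0 RPKM against 4.92 and 7.46 RPKM. The groups were far apart, and the log2 fold change was 1.72 (standard error 0.207, edgeR adjusted p = 0.00117).

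The others past the adjusted p were named after their values were seen. The E2F factors E2F1, E2F3 and E2F4 and the partner TFDP1 were higher, with log2 fold changes of 0.69, 0.57, 0.52 and 0.47. E2F1 had 782 and 759 counts in the overexpressing cells and 309 and 391 in the control cells, with no overlap once scaled to library size. The pocket protein gene RBL1 and the partner TFDP2 were lower, at -0.62 and -0.68, though TFDP2 shares 5516 exon bases with an unnamed gene on the opposite strand. Shared exon bases were fewer for TFDP1, 828 with ATP4B on the opposite strand, and for E2F3, 372 with an unnamed gene on its own strand. Each of these 6 genes missed the threshold without overexpressing replicate 1, with edgeR adjusted p values of 0.0659 for E2F1, 0.162 for E2F3, 0.0972 for E2F4, 0.125 for TFDP1, 0.241 for RBL1 and 0.245 for TFDP2. E2F1, E2F3, E2F4, TFDP1 and RBL1 also missed it without replicate 3 (edgeR adjusted p from 0.0629 for RBL1 to 0.302 for TFDP1). Without control replicate 6 the edgeR adjusted p was 0.0540 for E2F1, 0.0921 for E2F3 and 0.0575 for E2F4, and without control replicate 8 it was 0.0605 for both RBL1 and TFDP2. By the edgeR adjusted p alone, the list had 1 higher and 0 lower without overexpressing replicate 1, 1 and 1 without replicate 3, 2 and 3 without control replicate 6, and 5 and 0 without control replicate 8. E2F8, the other atypical E2F, had 283 and 348 counts in the overexpressing cells and 306 and 466 in the control cells, and was below both controls in both overexpressing libraries once scaled to library size. Its log2 fold change was -0.72 (standard error 0.260, edgeR adjusted p = 0.0751), and it passed the threshold with no filter on low counts (edgeR adjusted p = 0.0202) and without control replicate 6 (edgeR adjusted p = 0.0277). E2F7 was past it with any 1 library left out, at log2 fold changes of 1.45 to 2.06.

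Of 13 genes for the turnover of p53, the inhibitors and the G1 cyclins, 12 were tested. edgeR, DESeq2 and limma-voom called none of them by the rule with a minimum fold change, and with the adjusted p alone 2 of the 12 were higher and 1 lower, against 13.9% and 15.5% of all tested genes. These counts are near or below those shares. At an unadjusted p under 0.05 there were 2 higher and 2 lower, against 19.5% and 21.2%, and the median log2 fold change was 0.23, beside -0.0016 over all tested genes. The 3 genes, named after their values were seen, belong to ubiquitin ligases. FBXO31, known to target cyclin D1, had 2039 and 1773 counts in the overexpressing cells and 683 and 756 in the control cells, with both overexpressing libraries higher (log2 fold change 0.94, standard error 0.136, edgeR adjusted p = 0.00228). DDB1, the adaptor of CUL4 ligases, had 17581 and 12429 counts against 5593 and 6676 and was also higher in both (log2 fold change 0.82, standard error 0.139, edgeR adjusted p = 0.00445). FBXW7, the receptor that directs cyclin E to degradation, had 1549 and 1255 counts against 1728 and 1469 and was lower in both once scaled to library size (log2 fold change -0.67, standard error 0.167, edgeR adjusted p = 0.0212). Without overexpressing replicate 1, the edgeR adjusted p was 0.0571 for DDB1 and 0.126 for FBXW7, and without replicate 3 it was 0.120 for FBXW7. By the edgeR adjusted p alone, 5 genes of the list were higher without control replicate 8, where SKP1, SKP2 and DTL joined FBXO31 and DDB1. Without control replicate 6, 2 were lower, FBXW7 and CUL1, and without overexpressing replicate 1 FBXO31 was the 1 gene past the threshold. FBXW7 shares 198 exon bases with an unnamed gene on the opposite strand.

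Genes of later cell cycle phases were given by a pair of lists whose members lay on both sides of 0. Of 6 S and M phase cyclin genes 5 were tested, and edgeR, DESeq2 and limma-voom called none, where edgeR called 8.61% of all tested genes higher and 10.6% lower. At an unadjusted p under 0.05, 1 of 5 was higher and 0 lower, against 19.5% and 21.2% of all tested genes, and the median log2 fold change was 0.10, beside -0.0016 over all tested genes. Of 19 genes of S phase and mitosis 13 were tested and none was called with the minimum fold change by any of these tools. At an unadjusted p under 0.05, 0 of 13 were higher and 3 lower, near or below the shares of all tested genes, and the median was 0.0079. With the adjusted p alone 0 were higher and 1 lower, below the 13.9% and 15.5% of all tested genes. The 1 gene was TYMS, thymidylate synthase, named after its values were seen, with 3720 and 3122 counts in the overexpressing cells and 3361 and 3827 in the control cells. Scaled to library size and length it was at 64.0 and 64.2 RPKM against 92.0 and 93.6 RPKM, lower in both overexpressing libraries (log2 fold change -0.53, standard error 0.130, edgeR adjusted p = 0.0187). TYMS shares 1026 exon bases with ENOSF1 on the opposite strand, and it missed the threshold without overexpressing replicate 1 (edgeR adjusted p = 0.190) or replicate 3 (edgeR adjusted p = 0.153). By the edgeR adjusted p alone, leaving out control replicate 6 made 4 of these genes lower in place of 1, TYMS, CDT1, BUB1 and TOP2A. Leaving out control replicate 8 made MCM7 and the M phase cyclin gene CCNB3 higher and TYMS lower, and leaving out overexpressing replicate 3 made CDT1 lower in place of TYMS. With no filter on low counts CDT1 and TYMS were lower and CCNB3 was higher.

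Markers of cell types also moved with the groups. Of 13 listed markers of pluripotent cells 6 had a row, with a summed level of 1234 and 1277 CPM in the overexpressing cells and 1480 and 1642 CPM in the control cells. POU5F1, SOX2 and SALL4 were among the markers with no row under their symbols. By edgeR, 0 were called higher and 3 lower of 5 tested, and these were LIN28A, CDH1 and ESRRB, named after their values were seen. EPCAM, also tested, had 7.97 and 8.99 CPM against 7.23 and 7.38 CPM (log2 fold change 0.21, edgeR adjusted p = 0.574). DNMT3B, the most abundant, had a log2 fold change of 0.27 (standard error 0.178, edgeR adjusted p = 0.297), with both overexpressing libraries above the controls, and shares 180 exon bases with MAPRE1 on the same strand. NANOG had 8 and 11 counts against 5 and 9. Of 11 trophoblast markers, led by KRT8, the sum was 311 and 1158 CPM against 15602 and 9556 CPM. Of 7 tested, 1 was called higher and 4 lower. KRT8 and KRT18 made up most of this sum in each library. KRT8 had 250 and 1014 CPM against 12015 and 7489 CPM, and KRT18 13.8 and 88.6 CPM against 3546 and 2035 CPM. DAB2 and TFAP2C were the others called lower. TFAP2A was called higher, with 31.0 and 42.8 CPM against 2.88 and 2.69 CPM, and GATA2 and GATA3 overlapped. CDX2, EOMES and KRT7 were at the floor of 3 counts or below in every library. Of 14 neural markers 12 had a row, led by STMN2, with 805 and 399 CPM against 194 and 219 CPM. Of 10 tested, edgeR called 6 higher and 0 lower. STMN2 had 327 and 155 CPM against 72.8 and 76.3 CPM, and TUBB3 had 351 and 117 CPM against 6.21 and 10.6 CPM. MAP2 was lower, at 55.7 and 78.1 CPM against 96.1 and 115 CPM (log2 fold change -0.66, edgeR adjusted p = 0.0375). MAP2 was short of the minimum size for a call, and missed the adjusted p threshold without overexpressing replicate 1 or control replicate 8. Of 12 markers of fibroblasts and feeder cells 10 had a row, led by VIM, with 1302 and 1070 CPM against 1436 and 1346 CPM. Of 6 tested, 1 was called higher and 3 lower. The higher call was lost without overexpressing replicate 1 and without control replicate 8. COL6A3 and LUM of this list were at the floor. Over all tested genes 8.61% were called higher and 10.6% lower. Mitochondrial genes took 8.62% and 7.57% of the counts in the overexpressing cells and 6.29% and 6.68% in the control cells, so this share also separated the groups. The part of these marker and mitochondrial differences in the levels of the cyclin, inhibitor and p53 target genes was not tested.

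Among tested genes with a symbol, those most like the called ones were found by the distance between centred log2 CPM profiles over the 4 libraries. Genes without a symbol were left out of this search. For CDKN1C these were MEGF9 (distance 0.048), ENTPD3 (0.064) and MESP1 (0.066). MEGF9 had 1082 and 894 counts in the overexpressing cells and 1533 and 1780 in the control cells. For CCNE2 they were RPP40 (distance 0.13), GSTO2 (0.15) and DRAM2 (0.16), and RPP40 had 661 and 607 counts against 180 and 301. Like CCNE2, RPP40 was lowest in control replicate 6.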

How the data were processed

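The RNA-seq data comprised 2 IRF-1 overexpressing and 2 control libraries of DOX-hLIF-2i piPSCs. Per the methods and the submitters' processing notes, the authors mapped reads to the pig genome with HISAT2 and counted them with featureCounts 1.6.4. They deposited whole-number counts per Ensembl gene, not normalized, with the exon length of each gene as an annotation value in bases. Which annotation release, strand option and rule for multi-mapped reads were used is not given in the sources used here, so exon bases shared with other genes are stated for genes whose own values are given. No column of counts was left unused, and the 4 ChIP and input libraries were not analysed here. Of 24358 identifiers, 14692 had a symbol in the gene name table. The 9 genes and the lists were chosen with earlier results of these data known. The lists are selections, and some known genes of these pathways were not analysed here.

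Counts were filtered with filterByExpr, scaled by TMM (factors 0.982 to 1.02) and tested with edgeR 4.0.16 (quasi-likelihood, R 4.3.3) over 13250 genes with Benjamini-Hochberg adjustment. Standard errors are the log2 fold change divided by the square root of F. RPKM is the TMM-scaled CPM divided by exon length in kilobases. Shares and ratios were compared by exact two-sided permutation tests. These tests, the ratios and the E cyclin share were not among the planned results. Totals of 15925429 to 24923319 counts put the floor of 3 counts at 0.120 to 0.188 CPM, which covers counting error only. Alternatives were other scalings and filters, DESeq2 1.42.0, limma-voom (limma 3.58.1) and leaving out each library. The text names the 9 genes, IRF1, CDK2, CDK4, CDK6 and up to 4 called genes per direction of each of 7 gene lists. It also names the most abundant and floor-level genes of 4 marker lists. For each called gene of the 9, it names the 3 genes with a symbol that had the nearest profile. Other genes were named after their values were seen, as were NANOG and the genes named only for a setting or a library left out. The test was run on simulated counts with log2 fold changes of 2 in either direction and a dispersion of 0.0313 for every gene. It called 193 of 198 changed genes with the right sign, and 4 unchanged genes. Smaller changes and genes with a wider spread between replicates were not simulated, so the check does not cover them. Promoter and protein sequences were not analysed here.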

Additional observations from a re-analysis of the deposited data

How the results depend on the processing

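Under other scalings, filters, DESeq2 and limma-voom, the 9 genes kept their direction and their side of the adjusted p threshold, except CCND2, which passed it with no filter on low counts (log2 fold change -0.59). The median over all genes moved by under 0.1 under each of them. With no minimum fold change 1842 genes were higher. The share of CCND2 among D cyclins differed by -17.2 percentage points from counts not divided by length, in place of -14.2 from RPKM.

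Leaving out each library in turn gave 756 to 1156 genes higher and 874 to 1548 lower. The log2 fold change ran from -0.77 to -0.67 for MDM2, -0.38 to 0.22 for CDKN1A, 0.52 to 0.58 for CDKN1B, -1.26 to -1.19 for CDKN1C, -0.013 to 1.30 for CCND1, -1.08 to 0.094 for CCND2, -0.29 to 0.063 for CCND3, -0.43 to 0.16 for CCNE1 and 0.74 to 1.41 for CCNE2. In these fits a lone library is assumed to vary like the other group. The cause of the differences between the control libraries was not tested.

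Settings for genes outside the 9, for list counts and for shares without a library were chosen after seeing the data. Without a library, the difference in share ran from 13.95 to 20.3 points for CCND1, -15.9 to -12.5 for CCND2 and -7.79 to 1.93 for CCND3. CDKN2B, 0.14 with all libraries, ran from -0.0072 to 0.28. Without control replicate 8, 2 of the 9 genes were called lower, and without control replicate 6, CCND1 was called higher. The groups shared no replicate numbers, so no paired analysis was possible because numbers 1 and 3 do not meet 6 and 8.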

Other observations

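With 2 libraries in a group, an exact permutation test cannot go below 0.333. The levels of 5 of the 9 genes overlapped between the groups, and this does not show that they are alike. CDKN1C rests on 53 to 109 counts in a library, and CCNE2 on 84 and 149 counts in the control cells. Reads of genes that overlap on the opposite strand cannot be told apart without the strand setting. Transcript counts say nothing of the phosphorylation or stability by which p27, cyclin D1 and cyclin E are known to be regulated.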
